A study of Mus musculus with 6 samples.

Results

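The genes described here make bile acids in the liver or control that synthesis: 7 enzymes and 2 nuclear receptors. They are Cyp7a1, Cyp8b1, Cyp27a1, Cyp7b1, Hsd3b7, Akr1d1, Baat, Nr1h4 and Nr0b2, and they are listed by name as a pathway. Accessions of the array probes were matched to these symbols, which gave 11 probes for the 9 genes, of 18353 genes that could be named on the array. All 11 probes were well above background on all 6 arrays, and all 9 genes were among the 15382 genes tested.

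Each of 6 liver samples from mice on the BL6 background was hybridised to 1 single-colour array, and levels are given as log2 signal relative to the 75th percentile of the array, so that 0 is the signal at that percentile. All mice carried the deletion Fah_del_tm1Mgo and so lacked fumarylacetoacetate hydrolase, the enzyme of the last step in the breakdown of tyrosine. NTBC (nitisinone) blocks an earlier step of that breakdown, and stopping it lets toxic intermediates build up in hepatocytes. FCR mice carried in addition deletions of Rag2 (Rag2_del_tm1Fwa), needed for antigen receptors, and of the common gamma chain of cytokine receptors (tm1Wjl), so that FCR mice, controls included, have no T, B or NK cells. Continuous NTBC, at 7.5 µg/ml in drinking water, was given to 1 Fah mouse, whose sample is labelled healthy liver, and to 1 FCR mouse, whose sample is labelled normal liver. The other 4 samples came from mice that went through 2 cycles of NTBC withdrawal: Fah tumour from the regimens labelled off and 2xoff/on (1 array each) and FCR inflamed liver from the same regimens (1 array each). These 4 arrays are called the cycled arrays below. The labels do not settle in which phase of NTBC a cycled liver was taken, and ages are not given. The labels do not state whether a group's arrays are from different animals, so p-values measure only the spread between these samples. The Fah comparison sets tumour tissue against non-tumour liver, and the deletions are in every cell of the mouse and not only in hepatocytes.

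Bile acids are made from cholesterol by hepatocytes. The classic pathway opens with Cyp7a1, and an alternative pathway opens with Cyp27a1 and runs through Cyp7b1; both share the enzymes that reshape the ring and then attach an amino acid. Synthesis is held in check by feedback: bile acids activate the receptor FXR (Nr1h4) in hepatocytes, FXR raises the repressor SHP (Nr0b2), and SHP together with the gut hormone FGF15 lowers Cyp7a1 and Cyp8b1. The receptor LRH-1 (Nr5a2) drives several of these genes through a short DNA element bound by receptors of its NR5A family.

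Promoter sequence, the 250 bases before the transcription start in RefSeq on GRCm38.p6, was given for 6 of the 9 genes. It was searched on both strands for the NR5A element (AAGGTCA or AAGGCCA), which 9.09% of 32851 promoters held. Cyp8b1 and Nr0b2, an enzyme under feedback and the repressor that carries it, each held 1 copy of AAGGCCA, and the other 4 held none. Both are shown 5′ to 3′ along the gene with that element in capitals, since these are the only sequence matches found among the members. The copy lies at -27 to -21 from the start in Cyp8b1 (chr9:121916306-121916555, minus strand) and at -200 to -194 in Nr0b2 (chr4:133553126-133553375, plus strand). The 13-base elements called IR1 and DR1, paired elements of the kind FXR and HNF4A bind, were in 0 of the 6 windows and in 0.00609% and 0.0335% of all promoters. A match or its absence in this window shows letters only.
Cyp8b1: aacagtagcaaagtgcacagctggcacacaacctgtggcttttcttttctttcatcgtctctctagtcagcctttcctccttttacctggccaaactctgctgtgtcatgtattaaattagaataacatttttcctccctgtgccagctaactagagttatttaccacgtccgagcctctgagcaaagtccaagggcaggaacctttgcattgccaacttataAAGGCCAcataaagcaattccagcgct
Nr0b2: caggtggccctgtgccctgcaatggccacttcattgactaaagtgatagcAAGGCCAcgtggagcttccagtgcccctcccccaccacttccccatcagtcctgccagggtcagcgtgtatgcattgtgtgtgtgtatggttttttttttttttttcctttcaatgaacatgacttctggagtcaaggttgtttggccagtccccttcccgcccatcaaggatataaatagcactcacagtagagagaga

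A few facts on the arrays bear on every value. Between 60.5% and 74.5% of spots were well above background per array, no spot was saturated, and the number of arrays limits the precision. Slide 1 held the continuous and off arrays and slide 2 both 2xoff/on arrays, so regimen and slide cannot be told apart between off and 2xoff/on. The first principal component, 54.1% of the variance, parted the 2 continuous arrays from the other 4. On the second, 21.8% of the variance, the FCR inflamed liver of the off regimen (FCR inflamed replicate 1) stood apart at -104, where the others lay between -7.99 and 53.0.

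Transcripts of 5 of the 7 enzymes fell after NTBC withdrawal over both genotypes, while no change of Cyp7a1, the rate-limiting enzyme of the classic pathway, was detected. In that comparison (4 cycled against 2 continuous arrays), 5 of the 9 genes fell at an adjusted p under 0.05 and none rose, where 3.27% of all genes tested fell and 8.65% rose. The 5 were Cyp7b1, Cyp8b1, Cyp27a1, Baat and Hsd3b7, at 3.50 to 22.1 times lower levels. The median log2 difference of the 9 genes was -1.81, against -0.02 for all genes. For 8 of the 9 genes, all but Cyp7a1, every cycled array lay below both continuous arrays, which held for 20.9% of all genes tested; without FCR inflamed replicate 1 the same 8 genes were counted, of 31.1% of all genes.

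**Figure D1:**
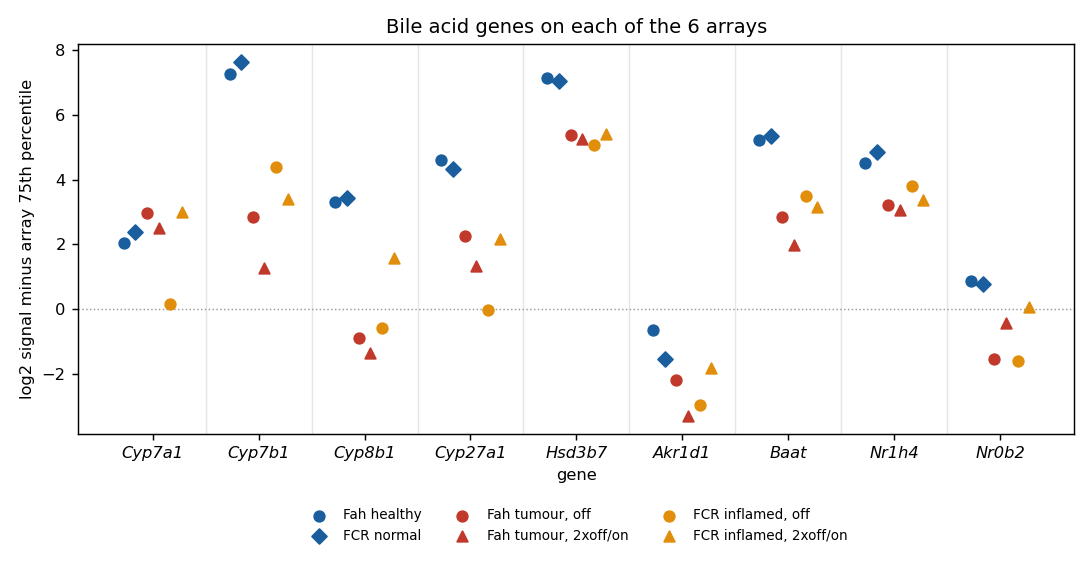
Level of each of the 9 genes on each of the 6 arrays, as log2 signal minus the 75th percentile of the array (y axis), with 1 point per array, coloured by group and shaped by regimen. Except for Cyp7a1, the 4 cycled arrays lie below both continuous arrays in every gene; heights of different genes come from different probes and cannot be set against each other.

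Cyp7a1 adds the first hydroxyl group to cholesterol. Its level was 2.05 and 2.38 in the continuous Fah and FCR livers. It was at 2.96 and 2.50 in Fah tumour (off and 2xoff/on), and at 0.15 and 3.00 in FCR inflamed liver (off and 2xoff/on). A single array, the FCR inflamed liver of the off regimen, was low, and the other 3 cycled arrays were above both continuous ones. The difference over both genotypes was -0.06 ± 0.71 (standard error; limma, adjusted p = 0.973), and 0.65 (adjusted p = 0.211) without that array. Its second probe read -1.69, -1.04, -0.61, 0.12, -2.34 and 0.88 in the same order of arrays. It had the same lowest array and a difference of 0.88 ± 0.86 over both genotypes (limma on every probe, adjusted p = 0.621), so no change of Cyp7a1 was detected with either probe.

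Cyp8b1, the sterol 12-alpha-hydroxylase that sets the share of cholic acid, was at 3.32 and 3.44 in the continuous Fah and FCR livers. It was at -0.89 and -1.35 in Fah tumour and at -0.59 and 1.59 in FCR inflamed liver (off and 2xoff/on). The groups did not overlap, and the FCR inflamed liver of 2xoff/on was the closest of the cycled arrays to the continuous ones. Cyp8b1 fell 12.9-fold over both genotypes (log2 difference -3.69 ± 0.62, limma, adjusted p = 0.00692).

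Cyp27a1, the mitochondrial sterol 27-hydroxylase that opens the alternative pathway, was at 4.60 and 4.32 in the continuous Fah and FCR livers. It was at 2.24 and 1.34 in Fah tumour and at -0.02 and 2.18 in FCR inflamed liver. As with Cyp7a1, its lowest array was the FCR inflamed liver of the off regimen, but here the groups did not overlap. The fall was 8.11-fold (log2 difference -3.02 ± 0.63, limma, adjusted p = 0.0166). With quantile normalization it was at -2.70 and adjusted p = 0.0502, and in all 3 of 17 alternatives lost the call.

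Cyp7b1, the oxysterol 7-alpha-hydroxylase of the alternative pathway, had the largest difference of the 9 genes. It stood at 7.26 and 7.63 in the continuous Fah and FCR livers, against 2.86 and 1.27 in Fah tumour and 4.38 and 3.41 in FCR inflamed liver (off and 2xoff/on). Both tumour arrays were below both inflamed arrays, and within each genotype the 2xoff/on array was the lower. The fall over both genotypes was 22.1-fold (log2 difference -4.47 ± 0.54, limma, adjusted p = 0.00183).

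Hsd3b7, the steroid dehydrogenase that acts after 7-alpha-hydroxylation in both pathways, varied least among the cycled arrays. It was at 7.14 and 7.03 in the continuous Fah and FCR livers, at 5.38 and 5.26 in Fah tumour, and at 5.06 and 5.41 in FCR inflamed liver. The fall was 3.50-fold (log2 difference -1.81 ± 0.38, limma, adjusted p = 0.0172). With quantile normalization the difference was -1.27 and no longer passed (adjusted p = 0.0704), and in all 4 of 17 alternatives lost the call.

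Akr1d1, the 5-beta-reductase that bends the steroid ring, was at -0.65 and -1.52 in the continuous livers, at -2.20 and -3.29 in Fah tumour and at -2.94 and -1.80 in FCR inflamed liver. The groups did not overlap, but the FCR inflamed liver of 2xoff/on lay close under normal FCR liver. Its difference of -1.47 ± 0.57 did not pass (limma, adjusted p = 0.142).

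Baat joins bile acids to taurine or glycine, the last step before export. It was at 5.21 and 5.33 in the continuous Fah and FCR livers, at 2.83 and 1.98 in Fah tumour and at 3.49 and 3.15 in FCR inflamed liver. Its fall was 5.32-fold (log2 difference -2.41 ± 0.43, limma, adjusted p = 0.00885). A second probe read 3.14 and 3.10, then 0.78 and 0.09, then -0.18 and 1.27, in the same order, and its difference of -2.63 ± 0.54 passed as well (limma on every probe, adjusted p = 0.0315). The probes differed in which inflamed array was the lower.

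Over both genotypes the receptor and the repressor of the feedback loop had smaller differences than the 5 genes that fell, and neither passed. Nr0b2 was close to Hsd3b7, at -1.70 against -1.81, and in Fah alone the order turned (-1.86 against -1.82). Nr1h4, the gene of the bile acid receptor FXR, was at 4.52 and 4.84 in the continuous livers, at 3.23 and 3.07 in Fah tumour and at 3.79 and 3.38 in FCR inflamed liver. Its groups did not overlap and its difference was -1.31 ± 0.39 (limma, adjusted p = 0.0666); it passed without FCR inflamed replicate 1 (-1.42, adjusted p = 0.0137) and without replicate 2 (-1.21, adjusted p = 0.0181).

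Nr0b2, the gene of SHP, was at 0.88 and 0.78 in the continuous livers. It was at -1.54 and -0.41 in Fah tumour and at -1.59 and 0.07 in FCR inflamed liver, so that in both genotypes the off array was the lower. The difference of -1.70 ± 0.60 did not pass (limma, adjusted p = 0.108). Within slide 1 alone, which holds the continuous and off arrays, the differences were -2.40 for Nr0b2 and -1.49 for Akr1d1. That fit has 1 array for each genotype and regimen, so only the differences are given. Without FCR inflamed replicate 2, 8 of the 9 genes were called, all but Cyp7a1. Of all genes, 9.48% fell without that array.

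**Figure D2:**
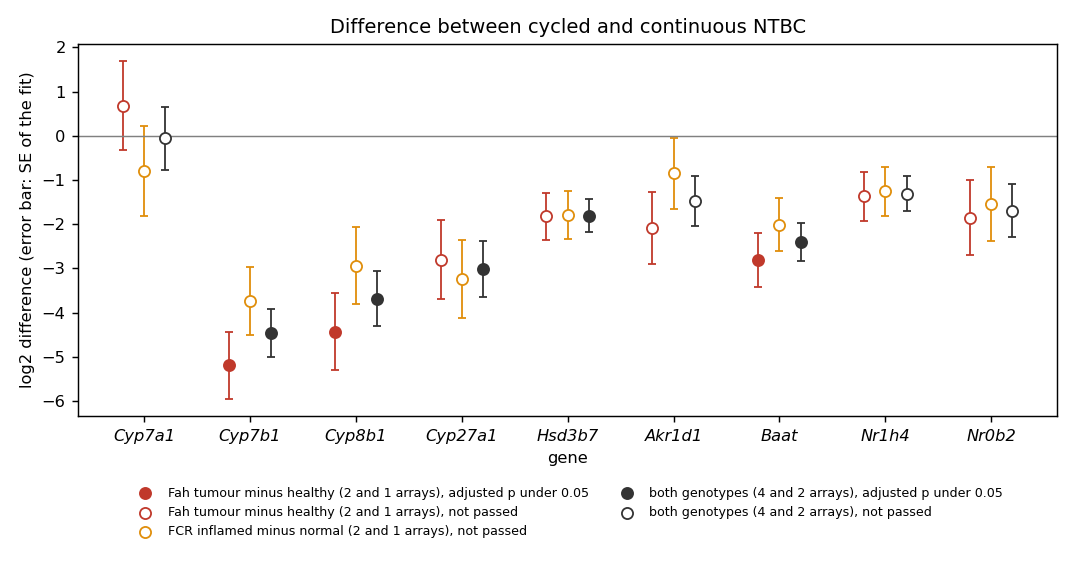
Log2 difference between cycled and continuous NTBC for each gene (y axis), in Fah, in FCR and over both genotypes; points are the fitted differences, error bars their standard errors, and filled points passed at an adjusted p under 0.05. Cyp7b1, Cyp8b1 and Baat are filled in Fah, none in FCR and 5 genes over both.

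Within each genotype the differences ran the same way with fewer arrays behind them. In Fah (tumour against healthy liver, 2 against 1 array), 3 of the 9 genes fell, where 1.13% of all genes did. A lone array has no spread of its own, so the errors here and in FCR rest on the tumour and inflamed pairs. Each pair is 1 off array on slide 1 and 1 2xoff/on array on slide 2. That spread therefore includes regimen and slide, as do the errors over both genotypes. Cyp7b1 fell 36.6-fold (log2 difference -5.19 ± 0.76, limma, adjusted p = 0.00976), Cyp8b1 21.6-fold (-4.43 ± 0.87, adjusted p = 0.0249) and Baat 7.01-fold (-2.81 ± 0.61, adjusted p = 0.0342). The value of Cyp7b1 was -5.99 without Fah tumour replicate 1 and -4.40 without replicate 2. Of 16 alternatives, 7 lost the call of Baat, among them quantile normalization (adjusted p = 0.0753) and the authors' values (adjusted p = 0.0832), 3 lost that of Cyp8b1 and 1 that of Cyp7b1. Cyp27a1 was at -2.80 ± 0.89 (adjusted p = 0.118), and Cyp7a1, the only positive difference, at 0.68 ± 1.01 (adjusted p = 0.818). Without Fah tumour replicate 2 only Cyp7b1 and Cyp8b1 passed (0.649% of all genes fell), and without FCR inflamed replicates 1 and 2 in turn 5 and 6 genes passed (4.42% and 5.07% of all genes fell). In FCR (inflamed against normal liver, 2 against 1 array) none of the 9 genes passed, where 0.202% of all genes fell, although all 9 differences were negative, with a median of -1.80, and 5 had an unadjusted p under 0.05. Cyp7a1, at -0.80 ± 1.01, was at 0.31 with its second probe and at 0.62 without FCR inflamed replicate 1. Cyp7b1 came nearest at -3.74 ± 0.76 (limma, adjusted p = 0.0505), and Cyp27a1 was at -3.24 ± 0.89 (adjusted p = 0.121), or at -2.14 without FCR inflamed replicate 1. Leaving out an array gave 1 call without FCR inflamed replicate 1 (0.532% of all genes fell), 2 without each tumour array in turn (0.703% and 0.582%) and 6 without FCR inflamed replicate 2 (4.21%), among them Cyp7a1 (-2.22, adjusted p = 0.0199), for which the off array then stood alone. With slide as a block there were 6 calls in Fah and 4 in FCR, where 4.10% and 3.58% of all genes fell.

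The size of the withdrawal difference was not shown to depend on genotype. The test of the difference between the responses called 0 of the 9 genes and 0% of all genes (limma; 331 genes and 0 members had an unadjusted p under 0.05). Its values were -1.45 ± 1.08 for Cyp7b1, -1.49 ± 1.23 for Cyp8b1 and 1.48 ± 1.43 for Cyp7a1 (each adjusted p = 0.9999). They hung on single arrays: with each of the 4 cycled arrays left out in turn they ran from -2.25 to -0.66 for Cyp7b1, from -2.59 to -0.40 for Cyp8b1 and from 0.061 to 2.91 for Cyp7a1. The ends of each range came without Fah tumour replicates 1 and 2 for Cyp7b1, and without FCR inflamed replicates 1 and 2 for Cyp8b1 and Cyp7a1. Tumour against inflamed liver (2 against 2 arrays) likewise called none of the 9 genes, where 0.215% of all genes passed. Tumour minus inflamed was -1.83 ± 0.62 for Cyp7b1 (limma, adjusted p = 0.376) and -1.62 ± 0.71 for Cyp8b1 (adjusted p = 0.545), while Cyp7a1 was at 1.15 ± 0.82 (adjusted p = 0.764). With slide, and with regimen over these 4 arrays alone, as a block, Cyp7b1 (adjusted p = 0.0189 and 0.0138) and Cyp8b1 (adjusted p = 0.0342 and 0.0345) passed, as did 6.31% and 6.46% of all genes. Those block fits leave fewer residual degrees of freedom than the main one. Without FCR inflamed replicate 2, Cyp7a1 (2.58, adjusted p = 0.0139) and Cyp7b1 (-2.32, adjusted p = 0.0490) passed, as did 4.63% of all genes, and Cyp8b1 was at -0.53. Without replicate 1 Cyp7a1 turned to -0.27 and Cyp8b1 was at -2.71 (adjusted p = 0.0569). Without Fah tumour replicate 2 Cyp7b1 was at -1.04.

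Matched by regimen (3 pairs of 1 Fah and 1 FCR array), 4 genes were lower in Fah at all 3 regimens, Cyp7b1, Cyp8b1, Baat and Nr1h4, as were 24.5% of all genes. The fitted genotype difference was -1.35 ± 0.39 for Cyp7b1 (limma, adjusted p = 0.276), -1.12 ± 0.53 for Cyp8b1 (adjusted p = 0.455) and 0.66 ± 0.59 for Cyp7a1 (adjusted p = 0.654). None of the 9 genes passed, where 0.312% of all genes did. On continuous NTBC the genotypes were close, with 1 array each and no test: Fah minus FCR was -0.33 for Cyp7a1, -0.38 for Cyp7b1, -0.12 for Cyp8b1, 0.28 for Cyp27a1 and 0.87 for Akr1d1, the widest gap.

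The off and 2xoff/on arrays, 1 of each per genotype and on different slides, differed in FCR more than in Fah, which could not be tested. In FCR inflamed liver 5 genes were higher in 2xoff/on than in off by more than 1 on the log2 scale, as were 16.5% of all genes. These were Cyp7a1 (2.84), Cyp27a1 (2.19), Cyp8b1 (2.18), Nr0b2 (1.66) and Akr1d1 (1.14), and the median of the 9 genes was 1.14 against -0.16 for all genes. All 5 rest on FCR inflamed replicate 1, the array that stood apart. The probes of Baat disagreed here, at -0.34 for the one used and 1.45 for the second, while the second probe of Cyp7a1 was at 3.22. In Fah tumour, 8 of the 9 differences were negative with a median of -0.46 (0.06 for all genes). There 2 genes were lower by more than 1, Cyp7b1 (-1.59) and Akr1d1 (-1.09), as were 6.13% of all genes, and Nr0b2 alone was higher (1.13) by the probes used. The second probe of Cyp7a1 was higher there too, at 0.74 against -0.45 for the one used.

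**Figure D3:**
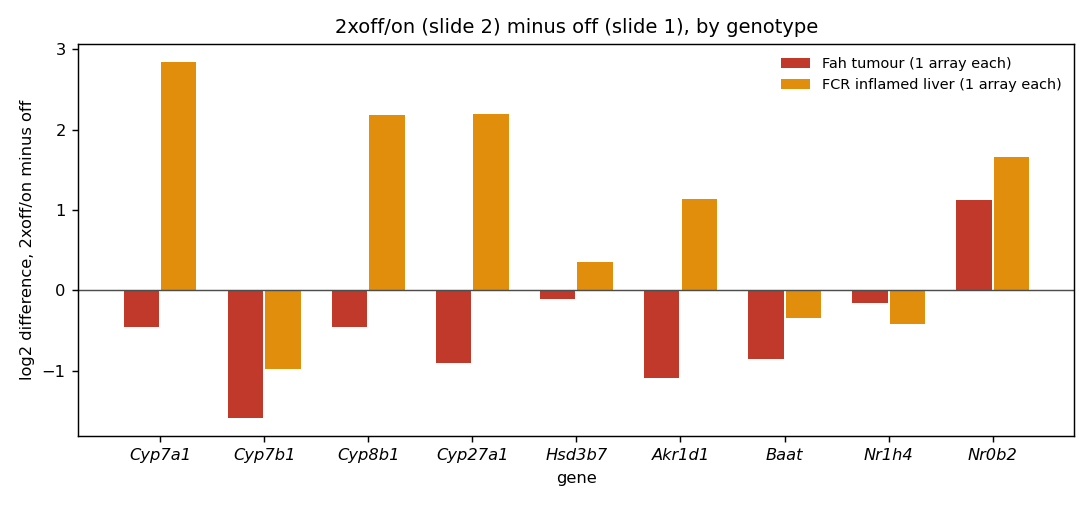
Log2 difference between the 2xoff/on and the off array (y axis) for each gene, with 1 bar for Fah tumour and 1 for FCR inflamed liver, each from a single pair of arrays and so without error bars. Cyp7a1, Cyp8b1, Cyp27a1 and Akr1d1 are above 0 in FCR and below 0 in Fah, and Nr0b2 is above 0 in both.

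Among the members the profiles over the 6 arrays, each centred on its mean, were most alike for Hsd3b7 and Nr1h4 (mean absolute difference 0.283 on the log2 scale) and least alike for Cyp7a1 and Cyp7b1 (2.60). Of 12835 genes well above background on all 6 arrays, the 5 closest to Cyp7a1 were Mvp (0.162), Aldh1b1 (0.194), Lad1 (0.194), Exoc4 (0.199) and Scamp5 (0.202), and all of them were lowest in the FCR inflamed liver of the off regimen. The 5 closest to Nr0b2 were Hpd (0.159), which encodes the enzyme that NTBC inhibits, Nr1d1 (0.172), a repressor of the circadian clock, Uroc1 (0.174), of histidine breakdown, Sned1 (0.203) and Fgf1 (0.208). Hpd was at 7.06 and 6.61 in the continuous Fah and FCR livers, 4.69 and 5.67 in Fah tumour, and 4.32 and 5.87 in FCR inflamed liver, with the off array lower in each genotype as for Nr0b2. These are likenesses over 6 arrays and carry no test. The genes were chosen for their profiles, so the low arrays they share with Cyp7a1 or Nr0b2 follow from that choice.

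Other genes of the pathway were taken from 6 lists, described here by counts over both genotypes, to be read beside the 3.27% of all genes that fell and the 8.65% that rose. Of 19 other enzymes of synthesis and conjugation 5 fell and 1 rose, with a median difference of -0.99. Those that fell were Slc27a5, which activates bile acids for conjugation (-1.98 ± 0.40, limma, adjusted p = 0.0141), the acyl-CoA synthetase Slc27a2 (-2.23 ± 0.45, adjusted p = 0.0145), the peroxisomal thiolases Scp2 (-1.77 ± 0.38, adjusted p = 0.0184) and Acaa1b (-2.45 ± 0.55, adjusted p = 0.0227), and the steroid reductase Akr1c6 (-2.13 ± 0.39, adjusted p = 0.0100). Ch25h, cholesterol 25-hydroxylase, rose by 3.81 ± 0.59 (adjusted p = 0.00501), from -5.40 and -4.54 in the continuous livers, the Fah one not well above background, to between -1.94 and 0.25 on the cycled arrays. With 1 continuous array measuring it, that size is uncertain, and it ran from 1.63 to 5.03 under the alternatives.

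Of 20 receptors and transcription factors 19 were tested, 3 fell and 1 rose (median -0.64), Nr0b1 being too dim to test. Nr1i3, the receptor CAR, fell by 2.31 ± 0.43 (limma, adjusted p = 0.0107), the hepatocyte factor Cebpa by 2.39 ± 0.56 (adjusted p = 0.0258) and Klf15 by 1.62 ± 0.39 (adjusted p = 0.0284). Vdr, the vitamin D receptor, which also binds lithocholic acid, was not well above background on either continuous array (mean -6.05). Its mean was -3.05 on the cycled arrays, at least 4.82-fold higher by the bound that the dim signal allows under this scaling. It entered the test through the cycled arrays alone, so its pass as the 1 riser is no support for a rise. Its log2 difference ran from 0.38 to 4.23 under the alternatives. Drivers of the members did not pass: Nr5a2, the gene of LRH-1, at -0.44 ± 0.54 (adjusted p = 0.677), and Hnf4a at -1.20 ± 0.41 (adjusted p = 0.0977), whose 3 probes ranged from -2.19 to -0.60 and which passed without FCR inflamed replicate 1 (-1.05, adjusted p = 0.0468).

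Of the FGF15 signal, Fgf15 itself, a hormone of the gut, was well above background on 0 of the 6 arrays. Of the 5 tested genes Fgfr4, its hepatic receptor, fell by 1.88 ± 0.44 (limma, adjusted p = 0.0256), from 3.65 and 3.52 in the continuous livers to between 1.06 and 2.13. Its co-receptor Klb did not pass (-0.42, adjusted p = 0.598). Among 9 tested FXR targets other than Nr0b2, 1 fell and 1 rose (median -0.53): Abcb11, the bile salt export pump (-1.73 ± 0.39, adjusted p = 0.0222), and Slc51b, a subunit of the basolateral exporter (2.56 ± 0.47, adjusted p = 0.0103). Slc51a, listed beside it, was well above background on 0 of the 6 arrays, so Slc51b alone does not show the level of that exporter.

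Of 14 tested transporters 5 fell and 2 rose (median -1.22). Besides Abcb11, uptake carriers fell: Slc10a1, the sodium-dependent carrier NTCP, by 2.91 ± 0.52 (limma, adjusted p = 0.00898), Slco1b2 by 2.14 ± 0.46 (adjusted p = 0.0185) and Slco2b1 by 2.36 ± 0.42 (adjusted p = 0.00927), as did the canalicular sterol exporter Abcg8 by 2.72 ± 0.56 (adjusted p = 0.0156). The risers were Slc51b and Abcc4, a basolateral efflux pump (2.66 ± 0.50, adjusted p = 0.0108). Abcc4 was at 0.85 and 1.43 in the continuous livers and between 2.91 and 5.36 on the cycled arrays.

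Of 10 tested genes of bile acid hydroxylation, sulfation and glucuronidation 3 fell and none rose (median -1.17). Sult2a8, a hepatic bile acid sulfotransferase, had the largest difference of all list genes, -5.71 ± 0.50 (limma, adjusted p = 0.000532), and it fell in each genotype alone too (Fah -6.82, adjusted p = 0.00368; FCR -4.59, adjusted p = 0.0188). It was at 6.62 and 6.67 in the continuous livers, at 0.29 and -0.71 in Fah tumour and at 2.63 and 1.54 in FCR inflamed liver. The cytochromes Cyp2c29 (-2.21 ± 0.44, adjusted p = 0.0138) and Cyp3a11 (-1.92 ± 0.49, adjusted p = 0.0359) also fell.

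**Figure D4:**
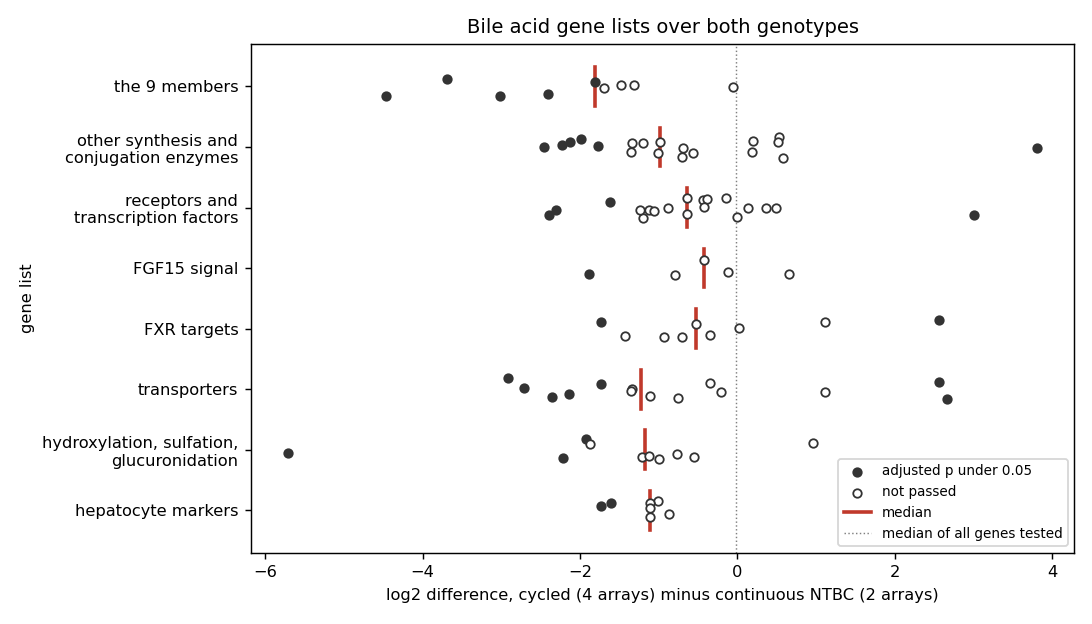
Log2 difference over both genotypes (x axis) for the 9 genes, the 6 pathway lists and the hepatocyte markers (rows), with 1 point per gene tested; filled points passed at an adjusted p under 0.05, red bars are medians and the dotted line is the median of all genes tested (-0.02). The median of every row lies left of that line, at -1.81 for the 9 genes and -1.11 for the hepatocyte markers.

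Those list counts moved with single arrays. Falls in the 6 lists, in the order given, were 5, 3, 1, 1, 5 and 3. They were 8, 6, 1, 2, 6 and 5 without FCR inflamed replicate 1, 9, 7, 1, 2, 6 and 6 without FCR inflamed replicate 2, and 5, 2, 0, 0, 4 and 2 without Fah tumour replicate 2. With quantile normalization they were 0, 1, 0, 0, 3 and 1. Of all genes, 7.65%, 9.48%, 2.17% and 1.81% fell in these 4 settings, in the same order. In the Fah comparison alone 3 of the other enzymes, 3 transporters and 2 genes of hydroxylation and sulfation fell, where 1.13% of all genes did. In FCR 1 gene of these lists did, Sult2a8, where 0.202% of all genes did.

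Markers of hepatocytes and of other cells moved along with the bile acid genes, and in these bulk samples fewer cells of a type and less RNA per cell cannot be told apart. Of 7 measured hepatocyte markers 2 fell (Tat and F2; 3.27% of all genes fell) and all 7 had negative differences, with a median of -1.11. Their summed level was 2049 to 2339 times the 75th percentile on the continuous arrays and 785 to 1316 on the cycled ones. Alb was the brightest of the 7 on every array and carried most of these sums. FCR inflamed replicate 1 had the highest sum of the cycled arrays. Its mean log2 level of these markers was 5.95, against 6.10 and 5.89 in Fah tumour (off and 2xoff/on) and 6.38 on FCR inflamed replicate 2. Of 9 bile duct and progenitor markers 6 rose (median 2.83, where 8.65% of all genes rose). Their summed level was 9.78 to 10.8 on the continuous arrays. It was 161 and 65.4 in Fah tumour and 57.3 and 17.1 in FCR inflamed liver (off before 2xoff/on). Spp1 was the brightest of the 9 on every array, at 7.13 on Fah tumour replicate 1, and carried most of these sums. Among markers of other cells, 4 of 5 neutrophil, 4 of 8 stellate and fibroblast and 3 of 6 macrophage markers rose. None of 8 lymphocyte and 5 endothelial markers passed. Macrophage markers summed to 226 on FCR inflamed replicate 1 and to 14.8 to 84.8 elsewhere. Marco, at 7.62 on FCR inflamed replicate 1, carried most of that sum, and Adgre1 (3.95) was highest on that array too. Csf1r, Clec4f, Lyz2 and Itgam were lower there than on both Fah tumour arrays. The mean log2 level of the macrophage markers was 2.03 on that array and 2.51 on Fah tumour replicate 2. Scaled to the hepatocyte markers in place of the 75th percentile, which moved the median of all genes to 1.20, Cyp7b1 (-3.25, limma, adjusted p = 7.41e-06), Cyp8b1 (-2.47, adjusted p = 0.000647) and Cyp27a1 (-1.80, adjusted p = 0.0154) still fell. Under that scaling Baat (-1.19, adjusted p = 0.107), Hsd3b7 (-0.59, adjusted p = 0.418) and Nr1h4 (-0.09, adjusted p = 0.905) did not pass, and Cyp7a1 was at 1.16 (adjusted p = 0.122). The 6 pathway lists then held 0, 0, 0, 0, 2 and 1 falls and 4, 2, 1, 2, 3 and 1 rises, in the order above, where 1.04% of all genes fell and 35.9% rose, since this scaling shifts every gene of an array alike. The part of cell composition was not tested for any gene, those that still fell under this scaling included.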

How the data were processed

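RNA of 6 mouse liver samples was measured on single-colour Agilent arrays. Per the file headers, Feature Extraction 10.7.3.1 read the arrays, while the submitters' processing notes name 10.5; the deposited scanner files hold processed intensity per spot, with background already subtracted but arrays not brought to a common scale. A deposited table of the authors' log2 values (array medians 6.46 to 6.48; across probes r = 0.996 to 0.999 with each array's log2 median signal) served as an alternative; its way of equalising arrays is not given here.

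Outlier and control spots were left out, spots of a probe were averaged, and values were log2 processed signal minus the 75th percentile of the array. Accessions were matched without versions to RefSeq (GRCm38.p6), used for names alone as the array was designed on mm9. Of the 41174 probes this named 26933 and left 14241 unnamed, and 29 probes missing on an array were dropped. A gene took its probe with the highest mean. The tested genes had a signal well above background on 2 or more arrays. The test was limma 3.58.1 in R 4.3.3 (eBayes with trend, two-sided, Benjamini-Hochberg over 15382 genes, threshold 0.05) in a model of 4 group means with 2 residual degrees of freedom, which gives a lone array the spread of the rest; the matched comparison used genotype plus regimen. Replicate 1 is off and replicate 2 is 2xoff/on.

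Every member was described on every array and probe. Of each list, the genes named are those that passed in any comparison, plus Nr5a2, Hnf4a and Klb, which were named after their values were seen; the 5 genes with the closest profiles to Cyp7a1 and to Nr0b2 were added. Alternatives were normexp correction (offset 50), quantile normalization, the array median, the authors' values, probe filters and the mean of probes. Others were every probe on its own, no trend, blocks, a common floor and leaving out each cycled array in turn. The continuous arrays stayed in every withdrawal fit, so how far those differences rest on either was not tested. Scaling to hepatocyte markers was added after seeing the data. The members and lists were chosen with earlier results of these data known. The scripts were tested on simulated data.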

Additional observations from a re-analysis of the deposited data

Results flagged for a closer look

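Fgf21, a fasting and stress hormone of the liver that signals through Klb, moved in opposite directions in the 2 genotypes on every array. Relative to the continuous liver of its genotype it was at -0.89 (off) and -0.63 (2xoff/on) in Fah tumour and at 2.95 and 1.22 in FCR inflamed liver. The difference between the responses was -2.85 ± 1.07 and did not pass (limma, adjusted p = 0.9999). Slco1a4, an organic anion carrier, moved the other way round, at 1.19 and 1.41 in Fah and at -2.67 and -0.76 in FCR, with a difference of 3.01 ± 1.17 (limma, adjusted p = 0.9999). Of the 81 member and list genes looked at, no other moved oppositely on every array of both genotypes. The share of all genes that did so was not computed, so the 2 of 81 cannot be set against it. No group held the 4 arrays that a check for outlying samples needs.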

How the results depend on the processing

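The number of members called moved by over 1.5 times under the alternatives named here; under the others with calls it was 2 to 4 in Fah and 5 to 7 over both genotypes. Over both genotypes the 5 calls became 3 with quantile normalization, 3 with the authors' values, 3 when scaled to the hepatocyte markers and 0 when values were floored at -5.12, and 5 to 8 when each array was left out in turn. In the first 4 of these settings, 1.81%, 1.62%, 1.04% and 0% of all genes fell, against 3.27% in the main fit. That share also moved with the array left out, as given above. In Fah the 3 calls became 1 with the authors' values, 1 when every probe was tested on its own and 6 with slide as a block. Of all genes, or probes in the second of these, 0.481%, 0.363% and 4.1% fell, against 1.13% in the main fit. When floored, 0 were called, and the count also moved with some cycled arrays left out. In FCR the 0 calls became 3 with normexp, 4 with slide as a block and 1 when scaled to the hepatocyte markers. Of all genes 0.806%, 3.58% and 0.312% fell there, against 0.202% in the main fit. The count also moved with each cycled array left out. For tumour against inflamed the 0 calls became 2 with slide as a block, where 6.31% of all genes were called, against 0.215% in the main fit. That count also moved without FCR inflamed replicate 2. With regimen as a replicate block, the 4 cycled arrays alone, which also drops the continuous pair, gave 2 member calls and 987 genes, and all 6 arrays gave 0 and 48; without the block the genotype comparison called 1 gene and 0 members, and without the continuous pair 2 members. No member was called in the difference of responses under any alternative. The floor left the members' own values as they were, while 361 genes lost all spread and the prior degrees of freedom went from 6.85 to 1.43. Directions turned for Cyp7a1 over both genotypes, at 0.18 with quantile normalization, 0.049 with normexp and 0.18 with the authors' values. Cyp7a1 was at 0.41 with the mean of its probes and at 1.16 when scaled to the hepatocyte markers. It ran from -0.77 to 0.65 with a cycled array left out. Directions also turned for Cyp7a1 in FCR, at 0.19 when scaled to the hepatocyte markers. There it ran from -2.22 to 0.62 with a cycled array left out. The direction of Cyp7a1 turned in tumour against inflamed (-0.27 to 2.58) and by genotype (-0.41 to 1.24) too. When scaled to the hepatocyte markers, directions turned for Akr1d1 in FCR (0.14) and Nr1h4 in Fah (0.083). The causes of these shifts were not tested. All 11 member probes were well above background on every array, so that dim signal limits none of these values.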
